A study of Homo sapiens with 14 samples.

Results

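The ribonucleotide reductase genes RRM1, RRM2 and RRM2B, the dNTP hydrolase gene SAMHD1, and the checkpoint kinase genes WEE1 and CHEK1 were followed in RNA of HEK293T cells with and without SETD2. They were taken by position on hg19: 5 anchor transcripts, 1 for each gene except CHEK1, and all transcripts whose locus holds a point inside one of the 6 genes. This gave 119 of the 204092 transcripts, at 6 of 35671 loci. The rule uses position and not FPKM, but the genes were picked with earlier results of these data known. HEK293T is a human embryonic kidney line that carries the SV40 large T antigen. The groups were wild type HEK293T and HEK293T with SETD2 knocked out, each listed with 3 RNA libraries, grown without a stated treatment. The labels do not say how SETD2 was knocked out or whether the knockout cells are 1 clone. The series also has 8 ChIP samples, which were left aside.

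Ribonucleotide reductase turns ribonucleotides into the deoxyribonucleotides used for DNA synthesis. RRM1 encodes its large, catalytic and regulatory subunit, RRM2 the small subunit made in S phase, and RRM2B a p53-inducible small subunit that serves cells outside S phase and after DNA damage. SAMHD1 works in the opposite direction and cleaves dNTPs. WEE1 holds CDK1 and CDK2 inactive by phosphorylation, and CHEK1 acts with ATR when replication stalls. Active CDK leads to degradation of RRM2 protein through cyclin F, so that WEE1 inhibitors lower RRM2. SETD2 places H3K36me3, and earlier work in other cells reported that this mark favours RRM2 transcription and that cells lacking it are sensitive to WEE1 inhibitors. The values below compare the RNA of these genes between the genotypes in HEK293T.

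The start regions of the genes for the subunits RRM1 and RRM2 are shown because their levels are compared most closely below. They are the 250 bases before the most upstream RefSeq start on GRCh38.p14, 5′ to 3′ on the plus strand, at chr11:4094435-4094684 and chr2:10122318-10122567. Capitals mark matches to CCAAT, the core of the NF-Y site, and to TTCCCGCC, 1 of the E2F motifs searched.
RRM1: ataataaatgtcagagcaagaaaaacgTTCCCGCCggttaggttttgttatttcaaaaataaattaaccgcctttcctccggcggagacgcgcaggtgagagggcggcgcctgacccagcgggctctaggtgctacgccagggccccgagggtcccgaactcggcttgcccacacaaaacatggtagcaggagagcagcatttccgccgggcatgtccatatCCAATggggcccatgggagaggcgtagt
RRM2: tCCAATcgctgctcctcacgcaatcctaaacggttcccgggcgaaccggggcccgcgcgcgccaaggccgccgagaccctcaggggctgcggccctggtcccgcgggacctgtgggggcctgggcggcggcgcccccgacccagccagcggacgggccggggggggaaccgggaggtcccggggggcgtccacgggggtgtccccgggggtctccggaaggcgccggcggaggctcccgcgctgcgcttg
The motifs CCAAT, TTTGGCGC, TTTCGCGC and TTCCCGCC were searched on both strands, and no matches overlapped. CCAAT occurred in 33.0%, TTTGGCGC in 0.542%, TTTCGCGC in 0.458% and TTCCCGCC in 2.77% of the windows of this length before 27305 gene starts. The RRM1 window held CCAAT from 28 to 24 bases and TTCCCGCC from 223 to 216 bases before the start. The RRM2 window held 1 CCAAT, from 249 to 245 bases before the start, and none of the other motifs. RefSeq lists 2 starts for RRM2, and only the upstream one is shown. GC content was 56.4% for RRM1 and 78.8% for RRM2, against a median of 57.6% over all windows. The matches are a description of letters, and factor binding was not measured in these files.

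Each group has a single FPKM value per transcript (fragments scaled to transcript length and library size) in each of the deposited tables, a table of tests and a tracking table, the latter with a lower and an upper bound at a level the file does not name. No library has a value of its own and no read counts are given, so depth is unknown and no spread between libraries can be computed. Where no table is named, a value comes from the table of tests. In bulk RNA, fewer cells expressing a gene and less RNA per cell cannot be told apart. At the SETD2 locus (3:47057919-47205457) the summed FPKM was 5.64 in knockout cells and 13.7 in wild type cells (6.10 and 13.3 in the tracking table). Of its 6 tested transcripts, 0 passed a q-value of 0.05 in the authors' deposited table, and the lowest p was 0.03785. Among marker loci set for HEK293T, PAX2 stood at 4.60 FPKM in knockout cells and 4.30 FPKM in wild type cells, and the other way in the tracking table, at 3.72 and 4.20 FPKM. Its transcript ENST00000355243 stood at 1.03 and 2.20 FPKM, with p = 0.0035 and q = 0.552 in the authors' deposited table. The locus at the VIM point, too long to be VIM alone by the length rule, stood at 550.6 and 493.6 FPKM, and the locus of KRT8, which also covers KRT18, at 43.1 and 434.2 FPKM (109.2 and 425.3 FPKM in the tracking table). Of the wild type value at KRT8, 308.0 FPKM came from 1 transcript, ENST00000581256. Its knockout value was listed at 0 among the tests and at 48.5 FPKM with bounds from 0 in the tracking table. Other transcripts of this locus were also lower in the knockout, among them ENST00000552150 at 1.25 and 16.1 FPKM and ENST00000388835 at 4.32 and 11.1 FPKM. So were ENST00000293308 at 0.00248 and 16.6 FPKM and ENST00000432903 at 7.95 and 46.2 FPKM, the latter with lower bounds of 0. Of the 10 transcripts of at least 1 FPKM in either group, only ENST00000547176 and ENST00000552551 stood the other way. They stood at 4.53 and 0 FPKM and at 1.89 and 0.936 FPKM. At an unadjusted p of 0.05 the authors' deposited table held 2 of the 15 tested there, and the lowest q was 0.991. The blood marker PTPRC was listed at 0 in both groups, and the liver marker ALB stood at 0.123 and 0.341 FPKM.

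None of the 119 transcripts of the axis was called different between the genotypes. Of the 82 that the authors tested, 0 passed a q-value of 0.05 in the authors' deposited table, against 0.255% of all tested transcripts (219 of 85852; 0.0629% higher and 0.192% lower in the knockout). The lowest q was 0.991. At an unadjusted p of 0.05 the authors' deposited table also held 0 of the 82, against 2.39% of all tested transcripts, and the lowest p was 0.06045. With 82 transcripts and these background shares, a count of 0 does not set the axis apart from other genes. Of the 82, 45 were listed higher and 37 lower in the knockout. The locus at the CHEK1 point held 44 of the 82, 22 higher and 22 lower, and the transcript with the lowest p. None of these 44 could be assigned to CHEK1, as described below. Among the 68 with values above 0 in both groups, 37 of them at that locus, the median log2 ratio of knockout to wild type was 0.24. Over 56292 tested transcripts above 0 in both groups that also reached 1 FPKM in either group it was 0.11. The 68 were held to no such floor, so the medians cover unlike sets. The authors' bounds of the groups were apart for 1 of the 82, a WEE1 transcript described below, against 0.632% of all tested transcripts.

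RRM1 lies at 11:4115937-4160106. Its anchor ENST00000300738 stood at 62.8 FPKM in knockout cells and 62.7 FPKM in wild type cells. In the tracking table it stood at 58.2 FPKM with bounds of 18.5 to 98.0 in the knockout, and at 61.2 FPKM with bounds of 22.1 to 100.4 in wild type cells. The groups overlapped almost fully. The log2 ratio of knockout to wild type was 0.00 in the test table and -0.07 in the tracking table, with p = 0.9951 in the authors' deposited table. Among 3626 tested transcripts within 2-fold of this level, 99.6% differed by at least as much.

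The other transcripts of the RRM1 locus were less even. ENST00000526350 stood at 64.6 FPKM in knockout cells and 33.6 FPKM in wild type cells, and ENST00000529109 at 83.1 and 58.1 FPKM. Their tracking bounds started at 0 in both groups and reached 135.4 and 183.7 FPKM in the knockout, so both overlapped the wild type. ENST00000423050 stood at 17.6 and 16.2 FPKM, ENST00000528442 at 13.7 and 11.7 FPKM, and ENST00000530368 at 11.2 and 13.8 FPKM. The remaining 3 of at least 1 FPKM were ENST00000532710 at 3.54 and 1.57 FPKM, ENST00000534285 at 1.47 and 0.326 FPKM, and ENST00000537197, listed at 0 in knockout cells and 1.35 FPKM in wild type cells. In the tracking table ENST00000537197 stood at 1.17 FPKM in the knockout. The sum over all 15 transcripts was 258.1 FPKM in knockout cells and 199.6 FPKM in wild type cells. The anchor held 24.3% of the knockout sum and 31.4% of the wild type sum, so the difference in the sum lay outside the anchor.

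RRM2 lies at 2:10262455-10271545. Its anchor ENST00000304567 stood at 35.6 FPKM in knockout cells and 43.1 FPKM in wild type cells. The tracking table gave 34.2 FPKM with bounds of 18.6 to 49.8 in the knockout, and 42.1 FPKM with bounds of 20.7 to 63.5 in wild type cells. The knockout was the lower group in both tables, and the bounds overlapped over most of their length. The log2 ratio was -0.28 in the test table and -0.30 in the tracking table (p = 0.38065, q = 0.991 in the authors' deposited table). A difference of this size was common, since 57.2% of 5678 tested transcripts within 2-fold of the level differed by at least as much. Taken at their extremes, the bounds allow a knockout level from 0.294 to 2.40 times the wild type level.

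Summed over its 10 transcripts, the RRM2 locus stood the other way, at 187.5 FPKM in knockout cells and 135.3 FPKM in wild type cells. ENST00000498343 stood at 32.1 FPKM in knockout cells and 6.27 FPKM in wild type cells, a difference of 25.8 FPKM out of 52.2 for the locus. Its tracking bounds were 0 to 118.2 in knockout cells and 0 to 24.3 in wild type cells, and p was 0.4842 in the authors' deposited table. ENST00000485717 stood at 39.7 and 26.9 FPKM, ENST00000491447 at 55.0 and 43.2 FPKM, and ENST00000461327 at 17.2 and 10.4 FPKM. The lower transcripts were ENST00000360566 at 2.70 and 1.92 FPKM, ENST00000459969 at 2.06 and 2.25 FPKM, and ENST00000462343 at 2.44 and 0.921 FPKM. All 9 transcripts besides the anchor had a lower bound of 0 in at least 1 group. They summed to 151.9 FPKM in knockout cells and 92.2 FPKM in wild type cells, and the share of the anchor was 19.0% and 31.8%. The anchor and the locus sum therefore differ in direction, and neither direction is backed by a call.

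RRM2B, the alternative small subunit, lies at 8:103216730-103251346 and was the lowest of the anchors. ENST00000251810 stood at 3.67 FPKM in knockout cells and 2.96 FPKM in wild type cells. In the tracking table the values were 3.004 FPKM with bounds of 1.74 to 4.27 and 2.89 FPKM with bounds of 1.65 to 4.12, which nearly coincide. The log2 ratio was 0.31 in the test table and 0.06 in the tracking table (p = 0.2311, q = 0.991 in the authors' deposited table). Beyond the anchor, 3 transcripts reached 1 FPKM. ENST00000517517 stood at 1.97 and 0.890 FPKM and ENST00000519125 at 1.62 and 1.58 FPKM. ENST00000522394 stood at 3.11 FPKM in knockout cells and was listed at 0 in wild type cells, with knockout bounds of 0 to 8.44 around 2.03 FPKM in the tracking table. It held 29.2% of the knockout sum of 10.6 FPKM, beside a wild type sum of 6.09 FPKM. Over the 3 transcripts with values above 0 in both groups, the anchor among them, the sums were 7.26 and 5.42 FPKM.

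SAMHD1, which removes dNTPs, lies at 20:35504524-35580246 and had the tightest bounds of the anchors. ENST00000262878 stood at 14.0 FPKM in knockout cells and 17.4 FPKM in wild type cells, and at 14.6 FPKM (bounds 9.68 to 19.4) and 16.9 FPKM (bounds 11.3 to 22.6) in the tracking table. The knockout was lower in both tables and the bounds overlapped. The log2 ratio was -0.31 and -0.22 in the test and tracking tables, with p = 0.1422 in the authors' deposited table. Within 2-fold of its level 58.7% of 11400 tested transcripts differed by at least as much. The anchor held 84.0% of the locus sum in knockout cells and 87.7% in wild type cells. The only other transcript of at least 1 FPKM, ENST00000373694, stood at 2.27 and 1.63 FPKM. The locus sums were 16.7 FPKM in knockout cells and 19.8 FPKM in wild type cells. For SAMHD1 the anchor and the sum thus had the same direction.

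**Figure D1:**
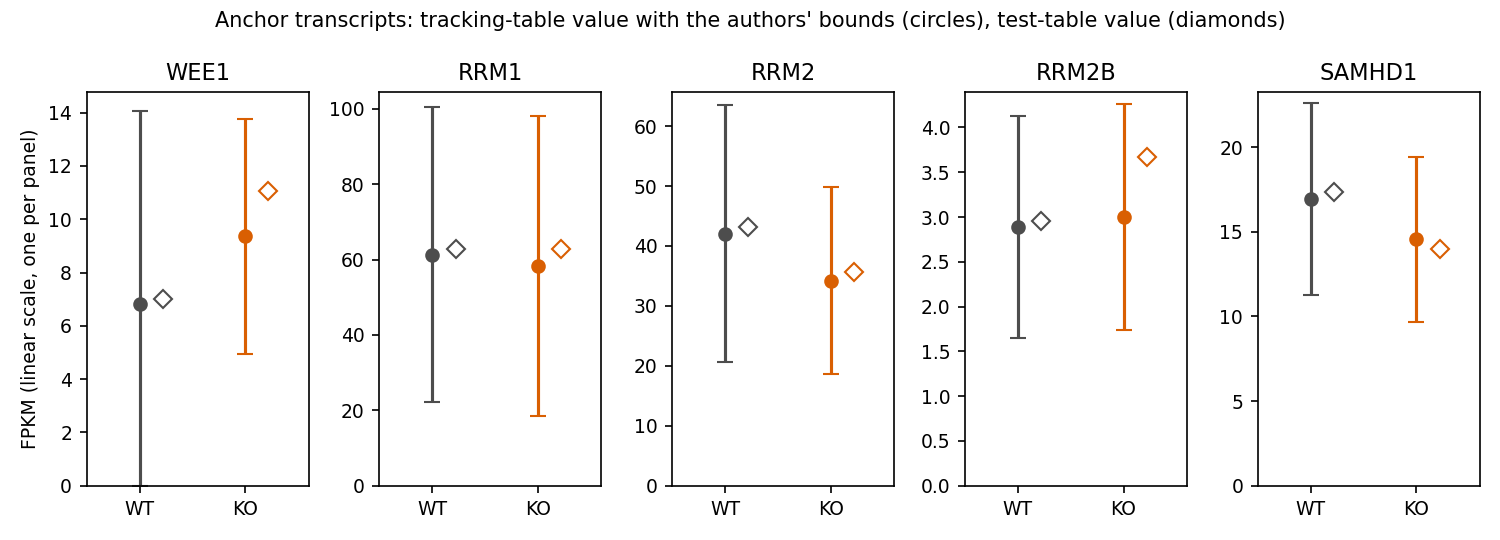
FPKM of the 5 anchor transcripts in wild type (WT) and SETD2 knockout (KO) cells, on a linear axis for each gene. Circles with bars are tracking-table values with the authors' lower and upper bounds, and diamonds are test-table values. The bars of the groups overlap for all 5 anchors, and the knockout diamond of RRM2B (3.67 FPKM) lies further from its circle (3.004 FPKM) than the wild type diamond does.

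WEE1, the kinase that restrains CDK1 and CDK2, lies at 11:9595228-9615004. Its anchor ENST00000450114 stood at 11.1 FPKM in knockout cells and 7.01 FPKM in wild type cells. The tracking table gave 9.36 FPKM with bounds of 4.96 to 13.8 in knockout cells and 6.83 FPKM with bounds of 0 to 14.1 in wild type cells. The whole knockout range lay inside the wild type range. The log2 ratio was 0.66 in the test table and 0.46 in the tracking table (p = 0.2107, q = 0.991 in the authors' deposited table). It was the largest difference among the anchors, and 36.1% of 15629 tested transcripts within 2-fold of its level differed by at least as much.

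A second WEE1 transcript stood apart. ENST00000458785 was listed at 0 in the knockout in both tables, with bounds of 0 to 0, and at 10.9 FPKM in wild type cells (10.6 FPKM in the tracking table, bounds 1.53 to 19.7). It was the only one of the 82 tested transcripts whose bounds did not overlap, yet p was 0.1627 and q 0.991 in the authors' deposited table. Among the transcripts of the axis, every value listed at 0 in the tracking table has bounds of 0 to 0, which give no error of their own. In the wild type this transcript held 32.5% of the locus sum and the anchor 20.9%. In the knockout the anchor held 44.3%.

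The remaining WEE1 transcripts were low. ENST00000470034 stood at 4.70 and 5.66 FPKM, ENST00000299613 at 3.48 and 4.24 FPKM, ENST00000532275 at 3.27 and 0.747 FPKM, ENST00000530175 at 1.32 and 3.38 FPKM, and ENST00000524549 at 1.03 and 0.518 FPKM in knockout and wild type cells. Their bounds overlapped between the groups in each case. The sum over the 10 transcripts was 25.0 FPKM in knockout cells and 33.5 FPKM in wild type cells. Without the transcripts listed at 0 in a group, an alternative added after the data were seen, the sums were 25.0 and 22.1 FPKM. The direction of the WEE1 sum therefore rests on ENST00000458785.

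**Figure D2:**
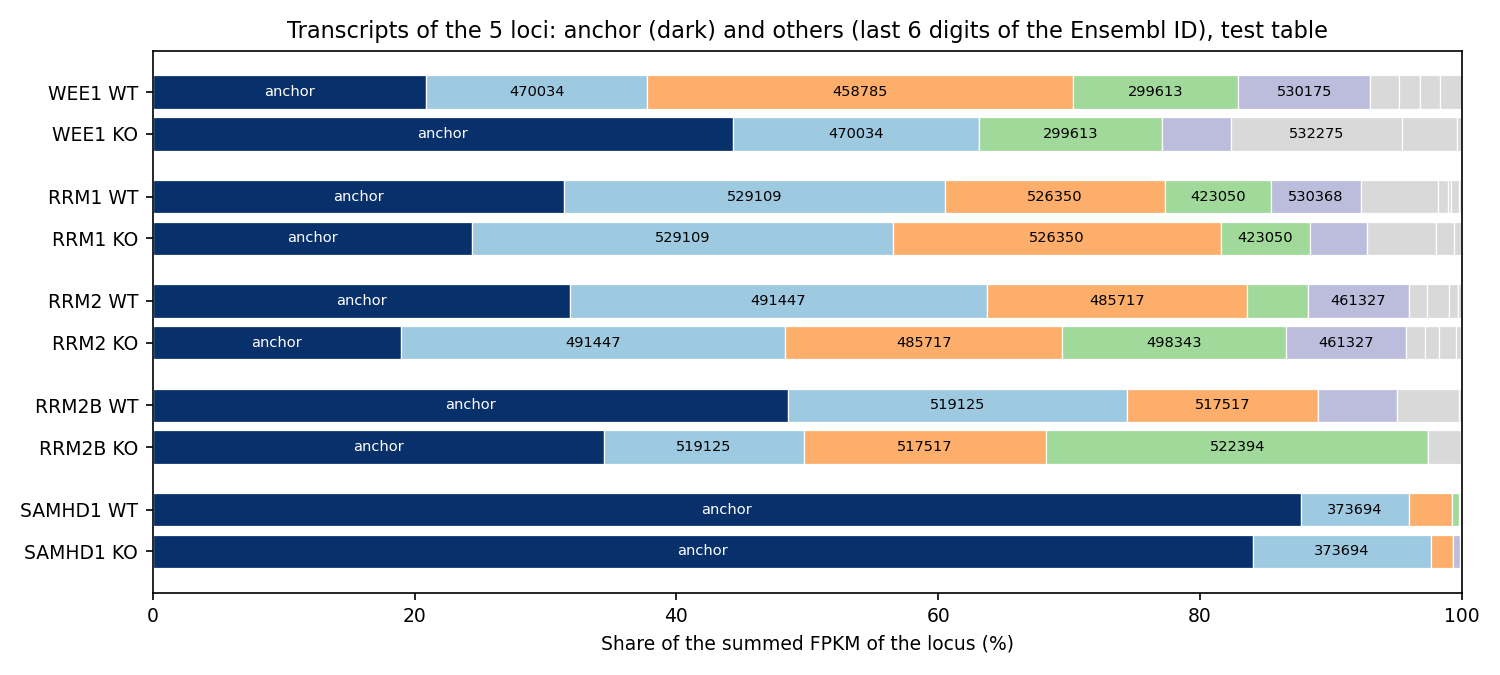
Share of the summed FPKM of each locus (percent) held by each of its transcripts in wild type (WT) and knockout (KO) cells, test table. The anchor is dark, and segments of at least 6% carry the last 6 digits of the Ensembl ID. At WEE1 the segment of ENST00000458785 takes 32.5% in wild type cells and is missing in the knockout, and at RRM2 the anchor takes 31.8% and 19.0%.

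At the CHEK1 point the files hold a locus of 68 transcripts (11:125439112-125551018), of which 44 were tested. CHEK1 was followed by position only. RefSeq on GRCh38.p14 places STT3A before CHEK1 and ACRV1 within its end, and the locus was 2.00 times as long as the RefSeq gene, so transcripts of neighbours may be included and none could be assigned to CHEK1. The values given here are therefore those of the locus and cannot be read as the level of CHEK1. The locus summed to 379.4 FPKM in knockout cells and 370.0 FPKM in wild type cells. The log2 ratio was 0.04, and -0.02 in the tracking table. Of its 33 transcripts of at least 1 FPKM, 17 were listed higher and 16 lower in the knockout. Only 3 of the 68 had lower bounds above 0 in both groups. They were ENST00000278903 at 40.6 and 65.6 FPKM, ENST00000529196 at 48.0 and 43.9 FPKM, and ENST00000531491 at 36.5 and 35.2 FPKM in knockout and wild type cells, and the bounds of the groups overlapped for each.

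Precision followed the anchors, except at WEE1. There the wild type bounds of the anchor started at 0 and those of ENST00000458785 at 1.53. At the 5 loci with an anchor, 4 of 51 transcripts had lower bounds above 0 in both groups, and all 4 were anchors, those of RRM1, RRM2, RRM2B and SAMHD1. The bounds lay above and below the knockout value by 33.5% of it for SAMHD1, 42.0% for RRM2B, 45.5% for RRM2, 47.1% for WEE1 and 68.2% for RRM1. For the wild type value the distances were 33.4% for SAMHD1, 42.9% for RRM2B, 50.8% for RRM2 and 63.9% for RRM1, and for WEE1 the lower bound was 0. Among tested transcripts within 2-fold of each anchor's level, the smallest ratio the authors called was 1.70 for WEE1 and SAMHD1, 1.74 for RRM1 and RRM2 and 1.78 for RRM2B. Each of the 5 anchors differed by less than the smallest called ratio at its level, so differences of their size were not called there. The called transcripts were matched by level only, and their bounds were not set against those of the anchors. At their extremes the bounds allow a knockout level from 0.428 to 1.72 times that of the wild type for SAMHD1, from 0.423 to 2.59 times for RRM2B and from 0.184 to 4.42 times for RRM1. For WEE1 only the lower limit, 0.352, can be given, since the wild type bound starts at 0.

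**Figure D3:**
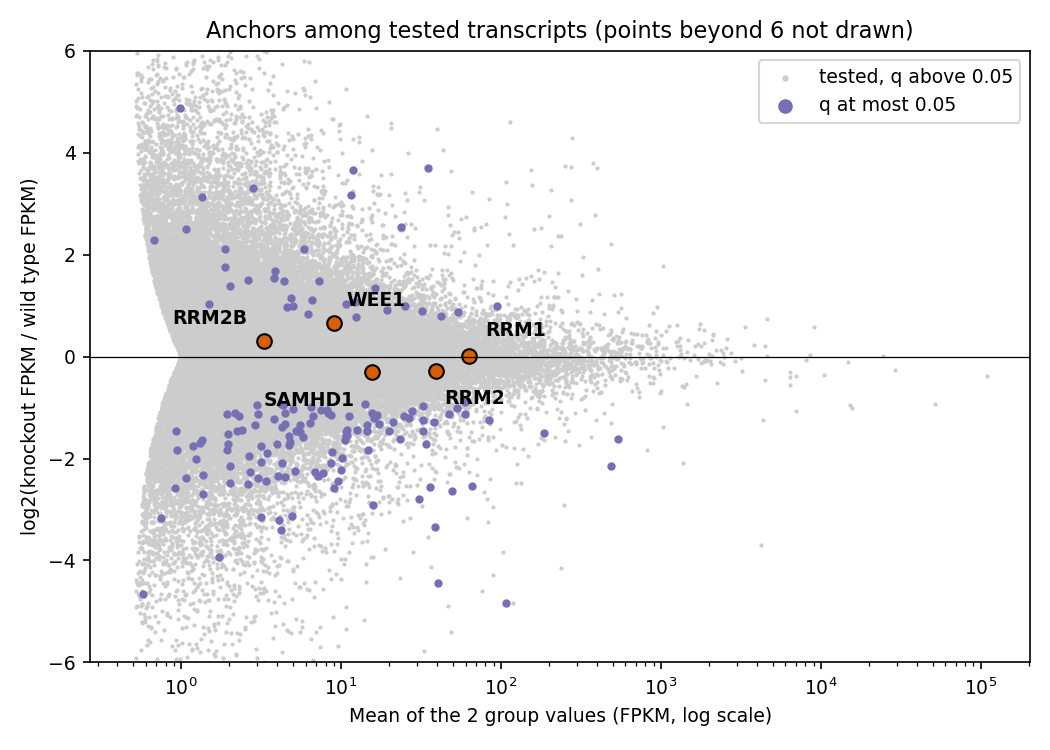
Log2 ratio of knockout to wild type FPKM against the mean of the group values (FPKM, log axis) for 56292 tested transcripts with a value above 0 in each group and 1 FPKM in either. Purple points passed the authors' q of 0.05 and the 5 anchors are orange; ratios beyond 6 on the log2 scale are not drawn. All 5 anchors lie within the grey cloud at their level, the WEE1 anchor highest at 0.66.

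FPKM is scaled to transcript length, so the anchors can be ranked within a group. The order was RRM1, RRM2, SAMHD1, WEE1 and RRM2B in both groups and both tables. The bounds of neighbours in this order overlapped in every case except WEE1 above RRM2B in the knockout. The RRM1 anchor was 1.77 times the RRM2 anchor in knockout cells and 1.46 times in wild type cells (1.70 and 1.46 times in the tracking table). The RRM2 anchor was 9.70 times the RRM2B anchor in knockout cells and 14.6 times in wild type cells, and 11.4 and 14.6 times in the tracking table. Against SAMHD1, which acts in the other direction on dNTPs, the ratio of the anchors differed little between the groups. It was 2.54 times in knockout cells and 2.48 times in wild type cells, and 2.35 and 2.48 times in the tracking table. Against WEE1 it was 3.22 times in knockout cells and 6.15 times in wild type cells, and 3.65 and 6.16 times in the tracking table. These ratios have no error of their own, since no value per library is given. They hold for the anchors only. By locus sum, the knockout stood at 1.39 times the wild type for RRM2, 1.29 for RRM1, 0.842 for SAMHD1 and 0.744 for WEE1. The RRM2 sum was therefore higher in the knockout relative to RRM1, SAMHD1 and WEE1. The anchors ran the other way for RRM1 and WEE1, and for SAMHD1 their direction differed between the tables. For RRM2B the sum stood at 1.75 times, and the direction was that of the anchors.

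The knockout columns of the tables are not multiples of each other, which touches every knockout value above. For wild type transcripts of the axis of at least 0.5 FPKM, the tracking value was 0.973 to 0.980 times the test value (68 transcripts). For the knockout the same ratio ran from 0.652 to 4.74 over 61 transcripts. Of these, 24 (39.3%) lay within 1% of the most frequent ratio of all transcripts, 0.6525, beside 28.3% of 63833 transcripts in the whole table. ENST00000522394 of RRM2B and ENST00000461327 of RRM2 were among them, with a ratio of 0.653 and 0.652. The ratio was 0.927 for the RRM1 anchor, 0.961 for RRM2, 0.819 for RRM2B, 1.04 for SAMHD1 and 0.847 for WEE1. What causes the difference between the tables was not tested.

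Loci near each gene were read alongside it. Within 2 Mb of RRM2, the 27 other loci of at least 1 FPKM had a median log2 ratio of 0.29, and the RRM2 sum stood at 0.47. In the tracking table the same median was 0.06 and the RRM2 sum stood at 0.34. Around RRM2B the median of 16 loci was 0.18, beside 0.80 for RRM2B, and 15 of the 16 lay below it. Around SAMHD1 the median of 40 loci was -0.12, beside -0.25. Around RRM1 it was -0.01 over 24 loci, beside 0.37. Around WEE1 it was 0.15 over 23 loci, beside -0.43, with 3 of the 23 lower than WEE1. The medians in the tracking table were 0.15 around RRM2B, -0.05 around SAMHD1, 0.07 around RRM1 and 0.05 around WEE1. The sums of these genes stood there at 0.52, -0.24, 0.30 and -0.32. Around the CHEK1 locus the median was 0.11 over 20 loci, beside 0.04. Over all 12467 loci the median was 0.06, and 24.2% of loci had sums at least 1.5-fold apart (13.1% higher and 11.1% lower in the knockout). Of the 6 loci of the axis, RRM2B alone passed that ratio, at 1.75-fold higher in the knockout in the test table, and 29.2% of that knockout sum came from the transcript listed at 0 in wild type cells. It did not pass in the tracking table, with sums of 8.53 and 5.94 FPKM and a log2 ratio of 0.52, nor without transcripts listed at 0 in a group, with a log2 ratio of 0.42.

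Other genes of nucleotide supply were read by locus, 7 of 15 listed genes having a locus of about the length of the gene. Of these 7 loci, 0 held a called transcript in the authors' deposited table, against 1.5% of all loci with a tested transcript (0.373% higher, 1.13% lower in the knockout), and 0 had one at an unadjusted p of 0.05, against 13.4%. The median log2 ratio of the sums was -0.03, and 0.17 in the tracking table, beside 0.06 and 0.08 over all loci. DGUOK, which phosphorylates deoxyguanosine in mitochondria, stood at 69.5 FPKM in knockout cells and 88.2 FPKM in wild type cells. TK1, the S-phase thymidine kinase, stood at 169.0 and 201.2 FPKM, with its main transcript ENST00000301634 at 88.4 and 110.1 FPKM. CMPK1, which phosphorylates CMP, UMP and dCMP, stood at 25.3 and 27.0 FPKM. At the other end were DCTD, which deaminates dCMP, at 38.1 and 33.1 FPKM, GUK1, the guanylate kinase, at 446.6 and 397.2 FPKM, and NUDT1, which clears oxidised purine nucleotides, at 68.6 and 67.6 FPKM. The remaining gene, DTYMK, the thymidylate kinase, was chosen after its values were seen to complete the list, at 98.6 and 100.8 FPKM.

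Of 19 listed genes of the replication checkpoint and CDK control, 13 had a locus of about their own length. The authors' deposited table held 0 called transcripts there, against 1.5% of all loci with a tested transcript. At an unadjusted p of 0.05 it held a transcript at 2 of the 13 loci, those of CCNF and TOPBP1, against 13.4% of all loci, so that this count is near the background. The median log2 ratio was 0.01, and 0.05 in the tracking table. The highest sums relative to wild type were at CDK1, the kinase that WEE1 inhibits, with 217.2 FPKM in knockout cells and 115.5 FPKM in wild type cells. Most of that difference came from ENST00000519760, at 149.4 and 66.2 FPKM with lower bounds of 0. ENST00000519078 stood at 28.4 and 11.9 FPKM, with tracking bounds of 1.21 to 43.6 and 0 to 30.7. Of the 6 CDK1 transcripts of at least 1 FPKM in either group, only ENST00000395284 was lower in the knockout, at 27.5 and 30.6 FPKM. CCNF, the cyclin that targets RRM2 protein for degradation, stood at 48.7 and 34.2 FPKM. Its transcript ENST00000397066 stood at 33.0 and 15.7 FPKM, with tracking bounds of 6.90 to 47.3 and 2.93 to 27.8, and p = 0.02375 and q = 0.991 in the authors' deposited table. Another of its transcripts, ENST00000293968, stood the other way at 5.24 and 11.3 FPKM, and at 12.3 and 11.05 FPKM in the tracking table with lower bounds of 0. RAD17, the clamp loader of the checkpoint, stood at 100.6 and 96.5 FPKM.

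The lowest sums of that list were at ATR, ATRIP and TOPBP1, the kinase upstream of CHEK1, its partner and its activator. ATR stood at 10.1 FPKM in knockout cells and 19.9 FPKM in wild type cells, of which ENST00000515107 held 2.90 and 10.99 FPKM with lower bounds of 0. ATRIP stood at 24.1 and 32.7 FPKM, and TOPBP1 at 29.4 and 34.2 FPKM. The TOPBP1 transcript ENST00000260810 stood at 9.05 and 13.4 FPKM, with p = 0.01735 and q = 0.991 in the authors' deposited table. All 3 genes lie on chromosome 3, as does SETD2. The 664 loci of this chromosome had a median log2 ratio of -0.22 in these tables. The log2 ratios of the sums were -0.97 for ATR, -0.44 for ATRIP, -0.22 for TOPBP1 and -1.28 for SETD2. The part of the chromosome-wide level in these values was not tested.

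**Figure D4:**
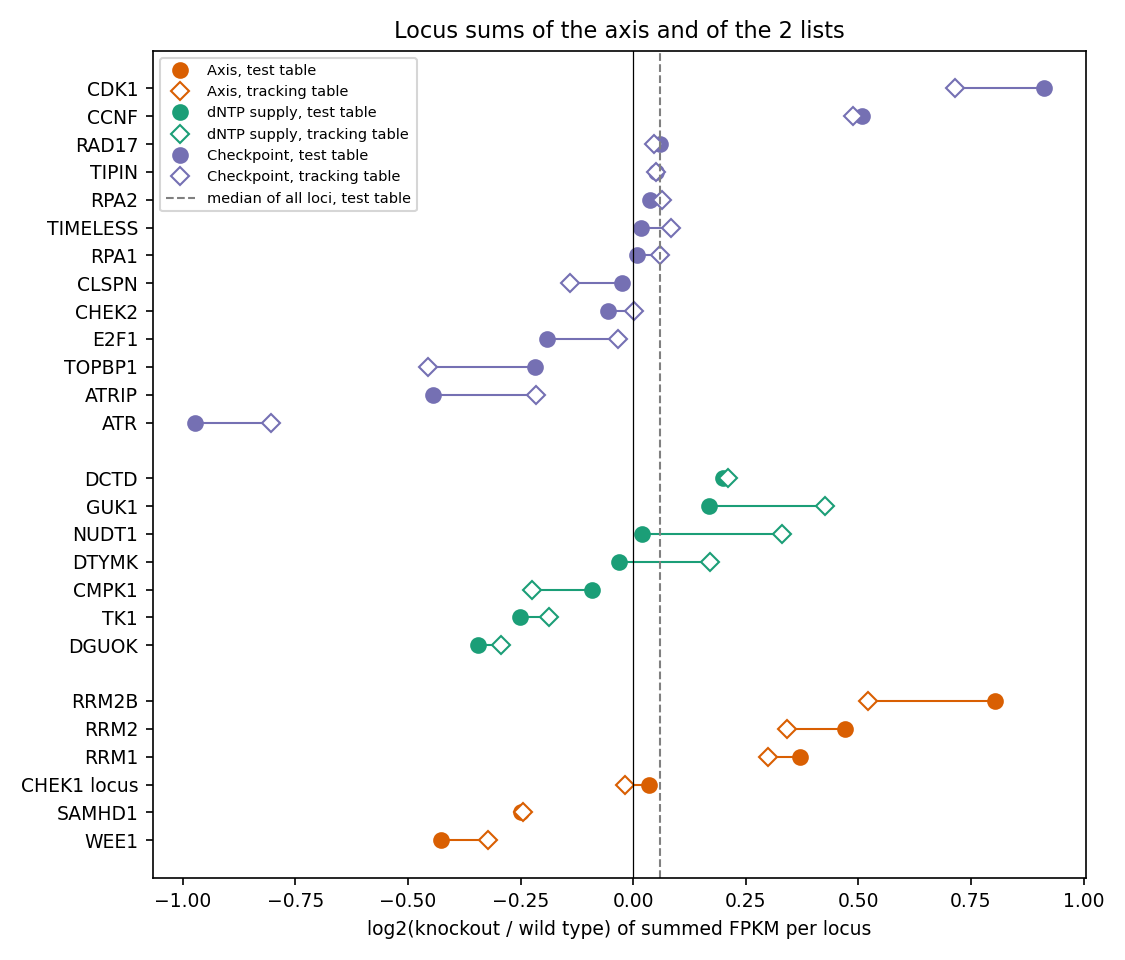
Log2 ratio of knockout to wild type of the summed FPKM of each locus, for the 6 loci of the axis, 7 of nucleotide supply and 13 of the checkpoint. Filled circles are the test table, open diamonds the tracking table, and the dashed line is the median of all loci (0.06). CDK1 (0.91) and ATR (-0.97) stand farthest out, and the symbols of DTYMK, CHEK2 and the CHEK1 locus fall on different sides of 0.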

How the data were processed

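Per the labels' protocols, ribosomal RNA was removed before RNA of wild type and SETD2 knockout HEK293T cells was sequenced. The label of 1 of the wild type RNA libraries gives a ChIP protocol instead. The submitters' processing notes name TopHat, Cuffdiff, Bowtie 1.1.2 and hg19. Per the file headers, the authors deposited FPKM values per transcript and group with bounds, and a table of tests with the log2 fold, a p-value, a q-value and a test statistic (a score with no fixed range, not used here). The tables named for genes and transcripts were identical. Whether the libraries are of separate cultures is not given, and the deposited p-values may then measure technical spread only.

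Members and lists were chosen with earlier results of these data known. Loci were found by hg19 points, with 1 added to each start. The points of the listed genes came from general knowledge of hg19, since the files name no gene. A listed gene was kept where the locus was within 2-fold of its RefSeq length (GRCh38.p14), and RefSeq coordinates served only for lengths, neighbours and the start regions shown. The 6 genes of the axis were kept whatever the length, and at RRM2 the RefSeq gene, 88443 bases, is far longer than the locus. FPKM were summed per locus, without loci holding a failed estimate (26 FAIL, 24 HIDATA). Ratios carry no pseudocount. Transcripts that reached 1 FPKM in either group were named, except at CHEK1, and from each list the 3 highest and 3 lowest sums. Lookup and sums were tested on 400 simulated loci. Python 3.11.15, pandas 2.3.3, numpy 2.4.6 and matplotlib 3.10.9 were used.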

Additional observations from a re-analysis of the deposited data

How the results depend on the processing

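No paired analysis was possible because the files give 1 value per group, and for the same reason no library could be left out. Of 75 alternative values, 65 kept their direction within 1.5-fold, or their count. With the locus sum in place of the anchor, the log2 ratio was -0.43 for WEE1 and 0.47 for RRM2. The RRM1 anchor, near 0, stood at -0.0731 in the tracking table and -0.0568 relative to the median of all loci, and the CHEK1 locus at -0.0186 and -0.0236. Without transcripts listed at 0 in a group the WEE1 sum stood at 0.18, and without its anchor the SAMHD1 sum stood at 0.13; both settings were chosen after seeing the data. The median of the nucleotide supply list was 0.17 in the tracking table. At an unadjusted p of 0.05 the checkpoint list had 2 loci in place of 0. The cause was not tested, except where leaving out transcripts is itself the change. Group values without counts limit every comparison: depth is unknown.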
